A study of Homo sapiens with 24 samples.

Results

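The genes described here encode the subunits of the 4 respiratory complexes and of the ATP synthase, the machinery of oxidative phosphorylation. They were chosen by a rule on symbols that uses no measured value, though earlier results of these data were known when it was set. The symbols were NDUFA, NDUFB, NDUFC, NDUFS and NDUFV with a number for complex I, SDHA to SDHD for complex II, UQCR symbols and CYC1 for complex III, 10 COX symbols for complex IV, ATP5F1, ATP5M and ATP5P symbols for the ATP synthase, and the 13 protein genes of mitochondrial DNA. These patterns matched 145 gene symbols, of which 118 were listed in at least 1 of the 6 deposited tables. Of those, 90 were subunit genes, out of 34496 genes listed in any table, and the other listed ones were 26 pseudogenes, 1 readthrough gene (ATP5MF-PTCD1) and 1 paralog (ATP5MGL), which were left out. The 77 nuclear subunit genes comprised 36 of complex I, 4 of complex II, 9 of complex III, 11 of complex IV and 17 of the ATP synthase. NDUFA4 has a complex I symbol but is a subunit of complex IV and was counted there. The 13 mitochondrial genes comprised 7 of complex I, 1 of complex III, 3 of complex IV and 2 of the ATP synthase.

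Complexes I and II take electrons from NADH and succinate and pass them to ubiquinone, complex III hands them on to cytochrome c, and complex IV gives them to oxygen. The proton gradient that complexes I, III and IV build is used by the ATP synthase (complex V) to make ATP. Complex II is encoded in the nucleus alone, whereas the other complexes combine nuclear subunits with a few translated inside the mitochondrion, so their assembly draws on both genomes.

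Polyadenylated RNA was sequenced from 24 libraries of 4 human glioma lines: the established glioblastoma lines U87 MG and LN229, and U87-R and LN229-R, derivatives resistant to the alkylating drug temozolomide. Medium of both resistant lines held 50 µM temozolomide and that of the parental lines held none, so resistance and the drug in the medium cannot be told apart, and whether the resistant lines are single clones is not given in the sources used here. Each line received DMSO, the solvent, or 50 µM STM2457, an inhibitor of METTL3, the enzyme that writes N6-methyladenosine (m6A) on mRNA, for 96 h, with 3 replicates in each of the 8 groups. U87 MG and U87-R cells grew in EMEM with 10% serum and their libraries came from the TruSeq Stranded mRNA kit, whereas LN229 and LN229-R cells grew in DMEM with 5% serum and 1 mM added sodium pyruvate and their libraries came from the Watchmaker mRNA kit. Cell background, medium and kit therefore cannot be told apart. Nothing says that the replicates came from separate cultures, and the spread that the p-values rest on may thus be a technical one between libraries.

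Each deposited table held 6 libraries of 1 comparison and was normalized separately, so every test stayed within a table and levels are not compared across tables. The comparisons ask how these mRNAs differ between resistant and parental cells in DMSO, and how STM2457 changed them in each line. The controls of a resistance comparison are the same DMSO libraries that enter the STM2457 comparisons of that background. Values are normalized counts, changes are differences of log2(value + 1) with their standard error (SE), and a gene was called, and is said to have risen or fallen, at an adjusted p under 0.05 in limma (Benjamini-Hochberg over all genes tested in the table). Where counts at an unadjusted p under 0.05 are given, the same count over all genes was not made, so they have no background. All 90 genes passed the filter of a mean of at least 10 in all 6 tables, the lowest group mean being 248.1 (NDUFA12). RNA came from whole cultures, so fewer cells with an mRNA and less of it per cell cannot be told apart.

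Library totals of normalized counts ran from 21232924 to 25349361 for U87 cells and from 24101385 to 28716587 for LN229 cells, and the original read depth is unknown. Among 7 glial and glioma markers, 6 exceeded 100 in every LN229 library, whereas in the U87 background VIM, CD44 and NES did so and 3 (GFAP, S100B and SOX2) stayed under 100 throughout. GFAP, the defining astrocyte filament, reached at most 51.2 in U87 and 227 in LN229 cells. Of 16 markers of other cell types, 10 in the U87 and 12 in the LN229 background were under 100 in every library or not listed. In the U87 background 5 exceeded 100 in every library: CD68 (9446 to 20217), COL1A1 (2397 to 17409.6), COL1A2 (2561 to 58048), PDGFRB (947 to 3302) and CSF1R (105 to 246), while the pan-leukocyte marker PTPRC reached at most 5.05. In the LN229 background PDGFRB and SYT1 did so. The part of these markers in the results was not tested. Names of the LN229 controls conflicted between tables. In the U87 background all 6 DMSO columns of the resistance table were closest to the like-named column of an STM2457 table (SD of the log2 ratio 0.0577 to 0.0594 over at least 9891 genes). In the LN229 background 0 of 6 were, and all 6 were closest to the same replicate number of the other line (SD 0.0568 to 0.0615, against 0.3 to 0.363 for the like-named column, over at least 10943 genes). The direction of the LN229 resistance comparison, and which line each LN229 STM2457 effect belongs to, therefore depend on which table is named correctly. The names are used below as each table gives them. The library labelled LN229-R DMSO replicate 2 stood apart, with 5.66% of its normalized counts in the 13 mitochondrial genes against 4.3 to 4.41% in the other 2 controls of its table.

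STM2457 lowered 35 and 28 of the 77 nuclear genes in the 2 LN229 lines and 3 and 2 of them in the 2 U87 lines. In LN229, 35 of 77 nuclear genes fell and 5 rose, where 23.6% of all 17107 genes tested fell and 26.2% rose. In LN229-R, 28 fell and 2 rose, where 17.1% of all 17063 fell and 21.5% rose. Their median log2 changes were -0.22 and -0.26, beside -0.00305 and -0.0216 over all genes tested. In U87 MG, 3 nuclear genes fell and 2 rose, where 5.72% of 16407 genes fell and 7.86% rose, and in U87-R 2 fell and 3 rose, where 6.2% of 16185 fell and 8.46% rose. The nuclear medians there, -0.0141 and -0.0647, lay beside -0.0121 and -0.00496 over all genes, and the share of members called in either direction was under the background in both U87 lines. In both LN229 lines the share that fell was above the background and the share that rose was under it. When U87 MG libraries were set to equal totals instead, 1662 genes rose and 760 fell, against 1289 and 939 as deposited, and 46 of 77 nuclear members had a change above 0 in place of 35. By correlation, replicate numbers were taken to pair the libraries of U87-R and, less clearly for replicate 3, those of LN229-R. With the replicate as a block 5 nuclear genes rose and 7 fell in U87-R, where 15.7% and 13.9% of all genes did. In LN229-R the block gave 2 that rose and 35 that fell, where 25.8% and 23.7% of all genes did.

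**Figure D1:**
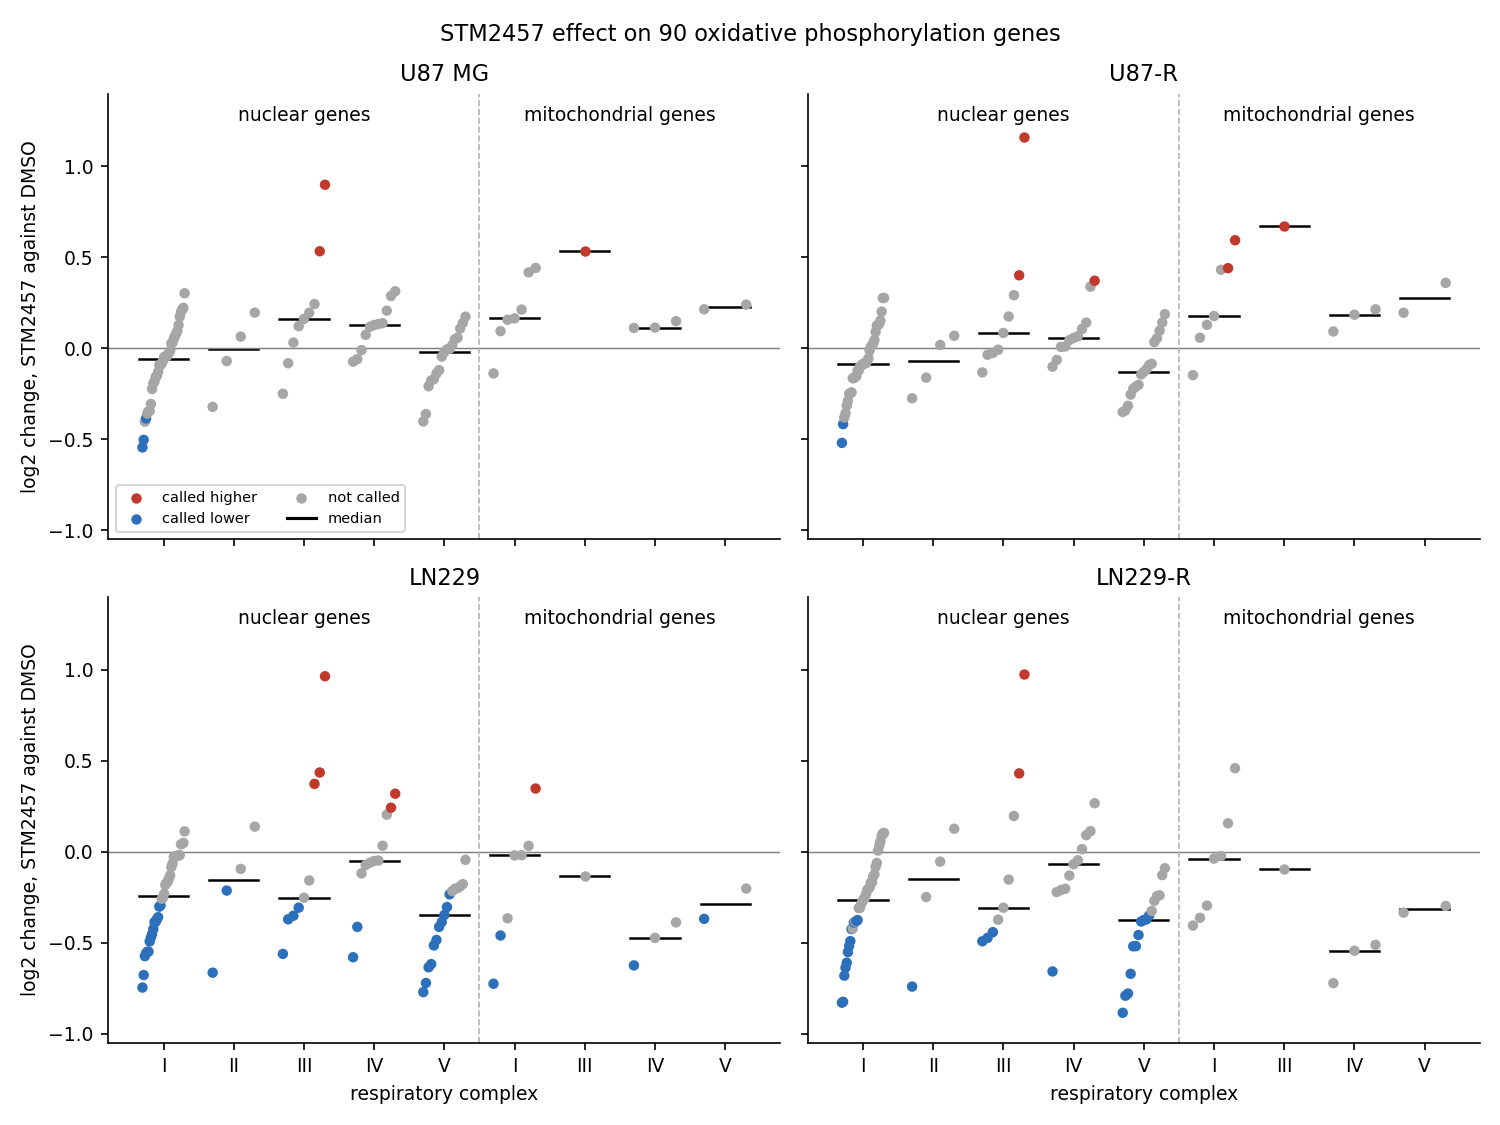
Log2 change of each of the 90 genes (points) between STM2457 and DMSO, by complex, for nuclear genes (left of the dashed line) and mitochondrial genes (right), with 1 panel per line. Red and blue points were called higher and lower, grey points were not called, and black bars are medians. In both LN229 lines the nuclear points of the ATP synthase lie below 0 for all 17 genes, and the highest nuclear point of complex III in every panel is UQCRFS1.

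The share of members called differed between complexes in the LN229 lines. In LN229 the genes that fell were 11 of 17 of the ATP synthase, 16 of 36 of complex I, 4 of 9 of complex III, 2 of 4 of complex II and 2 of 11 of complex IV. In LN229-R they were 11 of 17, 12 of 36, 3 of 9, 1 of 4 and 1 of 11. Complexes III and IV also held the members that rose, 3 of 9 and 2 of 11 in LN229 and 2 of 9 and 0 of 11 in LN229-R (2 of these 11 had an unadjusted p under 0.05 in limma, in either direction). In both lines 0 members of complex I, complex II and the ATP synthase rose. Of all genes tested 23.6% fell and 26.2% rose in LN229, and 17.1% fell and 21.5% rose in LN229-R. For complex IV the shares that fell and that rose lay under these in both lines. Whether complexes differed in their response was not tested.

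Complex III held the largest rise of any nuclear member in every line, that of UQCRFS1. This gene encodes the Rieske iron-sulfur protein, which takes the electron from ubiquinol. In U87 MG its normalized counts were 1289, 1315 and 1482 in DMSO and 2319.9, 2480.5 and 2829.8 in STM2457, a log2 change of 0.90 (SE 0.11, limma adjusted p = 0.00241). In U87-R they were 1049, 1066 and 1194 in DMSO and 2097, 2512 and 2819 in STM2457, a log2 change of 1.16 (SE 0.13, limma adjusted p = 0.00133). Every treated library of both U87 lines lay above every control. In LN229 the values were 1316, 1338 and 1326 in DMSO and 2687, 2449.8 and 2643 in STM2457, a log2 change of 0.97 (SE 0.074, limma adjusted p = 4.08e-05). In LN229-R they were 1551, 1576 and 1484 in DMSO and 3214, 2695 and 3183 in STM2457, a log2 change of 0.97 (SE 0.11, limma adjusted p = 0.000436). Groups did not overlap there either, and the call held in all 4 lines without any 1 library and under every setting tried. A lack of overlap was common among all genes tested. Treated libraries all lay above the controls for 3009 of 16407 genes in U87 MG and 2983 of 16185 in U87-R. They did so for 5251 of 17107 in LN229 and 4694 of 17063 in LN229-R. They all lay below the controls for 2701, 2731, 5110 and 4370 genes in the same order.

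UQCR10, a small membrane subunit of complex III, also rose in all 4 lines, by less. Its normalized counts went from 1073, 959.7 and 1182 to 1434, 1603 and 1605 in U87 MG and from 1196, 1023 and 1013 to 1348, 1385 and 1528 in U87-R. In LN229 they went from 1376, 1497 and 1431 to 1970.0, 1929.6 and 1921, and in LN229-R from 1495, 1862 and 1769 to 2264, 2308 and 2312. Treated libraries lay above controls in each line. The log2 changes were 0.53, 0.40, 0.44 and 0.43 (SE 0.11, 0.11, 0.074 and 0.11), with limma adjusted p of 0.0167, 0.0475, 0.00176 and 0.018. The call was lost in U87 MG without DMSO replicate 2 or STM2457 replicate 2 or 3 (adjusted p up to 0.0806), in U87-R without any 1 of the 6 libraries (up to 0.164) and in LN229-R without DMSO replicate 1 or 3 or STM2457 replicate 3 (up to 0.0621).

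NDUFA11, an accessory subunit of the membrane arm of complex I, was the nuclear member that fell in all 4 lines. Its normalized counts were 2314, 2195 and 2058 in DMSO and 1397, 1549 and 1693 in STM2457 in U87 MG, and 1761, 1906 and 1962 in DMSO and 1178, 1219 and 1552 in STM2457 in U87-R. In LN229 they were 1952, 1960.2 and 1951 in DMSO and 1402, 1056 and 1068 in STM2457, and in LN229-R 1968, 2173 and 1998 in DMSO and 1181, 1022 and 1273 in STM2457. No treated library reached a control of its table. The log2 changes were -0.50, -0.52, -0.75 and -0.82 (SE 0.11, 0.13, 0.12 and 0.12, limma adjusted p = 0.0164, 0.0281, 0.00117 and 0.0013). In U87 MG the call was lost without DMSO replicate 2 or STM2457 replicate 2 (adjusted p up to 0.0697), and in U87-R without any library other than STM2457 replicate 3 (up to 0.116).

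NDUFB4, another accessory subunit of the complex I membrane arm, fell in 3 lines. Its normalized counts were 927, 1029 and 855 in DMSO and 674, 729.9 and 695 in STM2457 in U87-R, a log2 change of -0.42 (SE 0.12, limma adjusted p = 0.0445). They were 1378, 1537 and 1513 in DMSO and 1181, 1141 and 1099.9 in STM2457 in LN229, a log2 change of -0.37 (SE 0.082, limma adjusted p = 0.00628), and 908, 979.7 and 1005 in DMSO and 762, 767 and 699.9 in STM2457 in LN229-R, a log2 change of -0.38 (SE 0.11, limma adjusted p = 0.027). Treated libraries lay below all controls in these 3 lines. U87 MG gave 1062, 1216 and 1169 in DMSO and 767, 888 and 955 in STM2457, also without overlap, with a log2 change of -0.40 that missed the threshold (limma adjusted p = 0.0554). The call in U87-R was lost without any library other than DMSO replicate 3 (adjusted p up to 0.174) and in LN229-R without DMSO replicate 3 or STM2457 replicate 1 or 3 (up to 0.112).

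**Figure D2:**
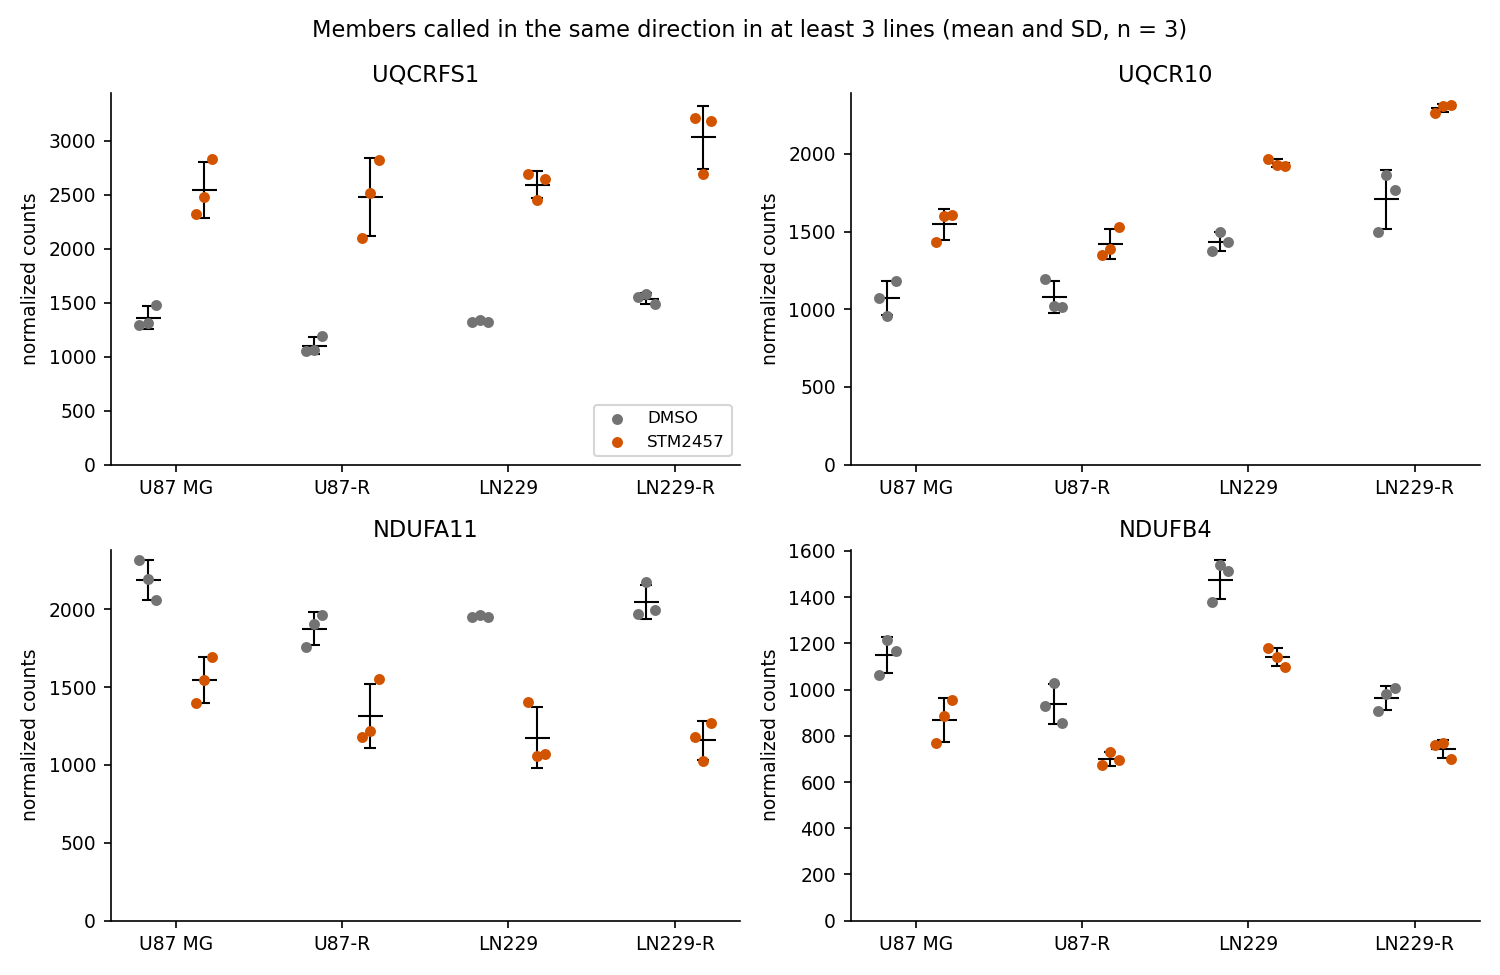
Normalized counts of UQCRFS1, UQCR10, NDUFA11 and NDUFB4 in each library (points) of the 4 STM2457 tables, with group mean and SD (n = 3) in black. Levels are comparable only within a line. Each treated group of UQCRFS1 and UQCR10 lies above its controls and each treated group of NDUFA11 and NDUFB4 below them.

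Promoters of these 4 genes are shown because they are the members with calls in the same direction in the most lines. The sequences, from RefSeq on GRCh38.p14, are the 250 bases before the annotated start, in the direction of the gene. UQCRFS1 is on the minus strand at chr19:29213152-29213401, UQCR10 on the plus strand at chr22:29767119-29767368, NDUFA11 on the minus strand at chr19:5903791-5904040 and NDUFB4 on the plus strand at chr3:120596086-120596335. Capitals mark the letters GCATGCGC, the core of the site of NRF-1, a transcription factor of many nuclear genes for mitochondria, here on both strands in overlapping copies.
UQCRFS1: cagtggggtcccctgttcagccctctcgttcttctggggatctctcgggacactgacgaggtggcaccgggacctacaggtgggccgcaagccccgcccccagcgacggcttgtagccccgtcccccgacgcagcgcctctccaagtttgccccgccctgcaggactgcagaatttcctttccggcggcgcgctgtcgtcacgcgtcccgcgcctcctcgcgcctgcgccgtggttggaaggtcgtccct
UQCR10: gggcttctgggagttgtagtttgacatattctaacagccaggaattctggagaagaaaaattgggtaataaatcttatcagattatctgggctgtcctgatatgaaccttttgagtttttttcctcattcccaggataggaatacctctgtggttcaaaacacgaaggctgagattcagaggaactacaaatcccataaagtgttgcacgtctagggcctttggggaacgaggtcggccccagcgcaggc
NDUFA11: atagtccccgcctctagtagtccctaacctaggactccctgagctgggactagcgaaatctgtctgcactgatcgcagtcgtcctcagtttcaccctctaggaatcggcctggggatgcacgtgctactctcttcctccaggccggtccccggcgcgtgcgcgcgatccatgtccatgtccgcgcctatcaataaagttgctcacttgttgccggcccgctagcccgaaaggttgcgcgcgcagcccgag
NDUFB4: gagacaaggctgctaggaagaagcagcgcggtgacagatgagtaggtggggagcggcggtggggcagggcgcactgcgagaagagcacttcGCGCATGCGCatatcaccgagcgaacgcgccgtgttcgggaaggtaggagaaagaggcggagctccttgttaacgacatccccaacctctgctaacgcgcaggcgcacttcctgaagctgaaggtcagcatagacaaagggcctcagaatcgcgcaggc

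Short motifs of 3 factors known for such genes were searched on both strands from 250 bases before to 50 bases after the start: the NRF-1 core GCATGCGC, the ETS letters CCGGAAG that GABP can bind, and the YY1 core AAGATGG. Of the 77 nuclear members, 63 had a promoter entry. The NRF-1 core was in 13 of 63 (20.6%), against 3.27% of 27305 RefSeq promoters of the same length. The ETS letters were in 20 of 63 (31.7%, against 10.7%) and the YY1 core in 16 of 63 (25.4%, against 6.06%). At least 1 of the motifs was in 37 of 63 (58.7%, against 18.2%), with all 3 of them in SDHB, ATP5ME and ATP5PF. Of the 37 members that fell in either LN229 line, 11 had no entry, so that of the 14 members without one most were in this group. Of the 26 with an entry 13 (50%) held a motif, and of the other members 24 of 37 (64.9%). Among the promoters shown, the letters were found only in that of NDUFB4, with first bases 159 and 157 bases before the start.

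The ATP synthase gave the widest fall in the LN229 lines, where all 17 nuclear subunit genes had a change below 0 in both, also under every scaling tried. Their median log2 change was -0.35 in LN229 and -0.37 in LN229-R. ATP5PO encodes the stalk subunit that holds the catalytic head to the membrane part. Its normalized counts were 2093, 2272 and 2261 in DMSO and 1508, 1048 and 1368 in STM2457 in LN229 (log2 change -0.77, SE 0.13, limma adjusted p = 0.00181). In LN229-R they were 2716, 2942 and 2821 in DMSO and 1748, 1308 and 1565 in STM2457 (log2 change -0.88, SE 0.13, limma adjusted p = 0.00135), so the treated libraries were lower throughout in both lines. ATP5MC1, ATP5MC2 and ATP5MC3 are separate genes for the same c subunit of the rotor ring. ATP5MC3 went from 4491, 4985 and 4805 to 3087, 2773 and 2805 in LN229 and from 5903, 5941 and 5559 to 3664, 3039 and 3378 in LN229-R (log2 changes -0.72 and -0.79, limma adjusted p = 0.000242 and 0.00114). ATP5MC1 changed by -0.63 and -0.78 (limma adjusted p = 0.000296 and 0.00336) and ATP5MC2 by -0.41 and -0.52 (limma adjusted p = 0.0114 and 0.0102). All 3 genes of the c subunit thus fell in both lines.

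Genes of the catalytic head of the ATP synthase fell in both LN229 lines too. ATP5F1B, its catalytic beta subunit, had normalized counts of 13204, 13756 and 13866 in DMSO and 10504, 10317 and 10414 in STM2457 in LN229 and of 14123, 13280.0 and 14501 in DMSO and 11641, 9768 and 10971 in STM2457 in LN229-R. Its log2 changes were -0.39 and -0.37 (limma adjusted p = 0.00388 and 0.041). ATP5F1A, the alpha subunit, changed by -0.35 and -0.38 (limma adjusted p = 0.00513 and 0.0286). The central stalk genes ATP5F1C and ATP5F1D, for its gamma and delta subunits, changed by -0.51 and -0.62 in LN229 and by -0.46 and -0.67 in LN229-R (limma adjusted p = 0.0012, 0.00355, 0.0073 and 0.00535). In LN229-R the calls of ATP5F1A and ATP5F1B were lost without most single libraries, all but STM2457 replicate 2 and all but DMSO replicate 2 (adjusted p up to 0.0831 and 0.143). ATP5F1E, ATP5MJ, ATP5MK, ATP5PB and ATP5PD were called in neither LN229 line, with log2 changes from -0.22 to -0.044 in LN229 and from -0.33 to -0.09 in LN229-R. In U87 MG and U87-R 0 of the 17 were called by limma (2 and 4 at an unadjusted p under 0.05), and their medians were -0.0209 and -0.13.

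**Figure D3:**
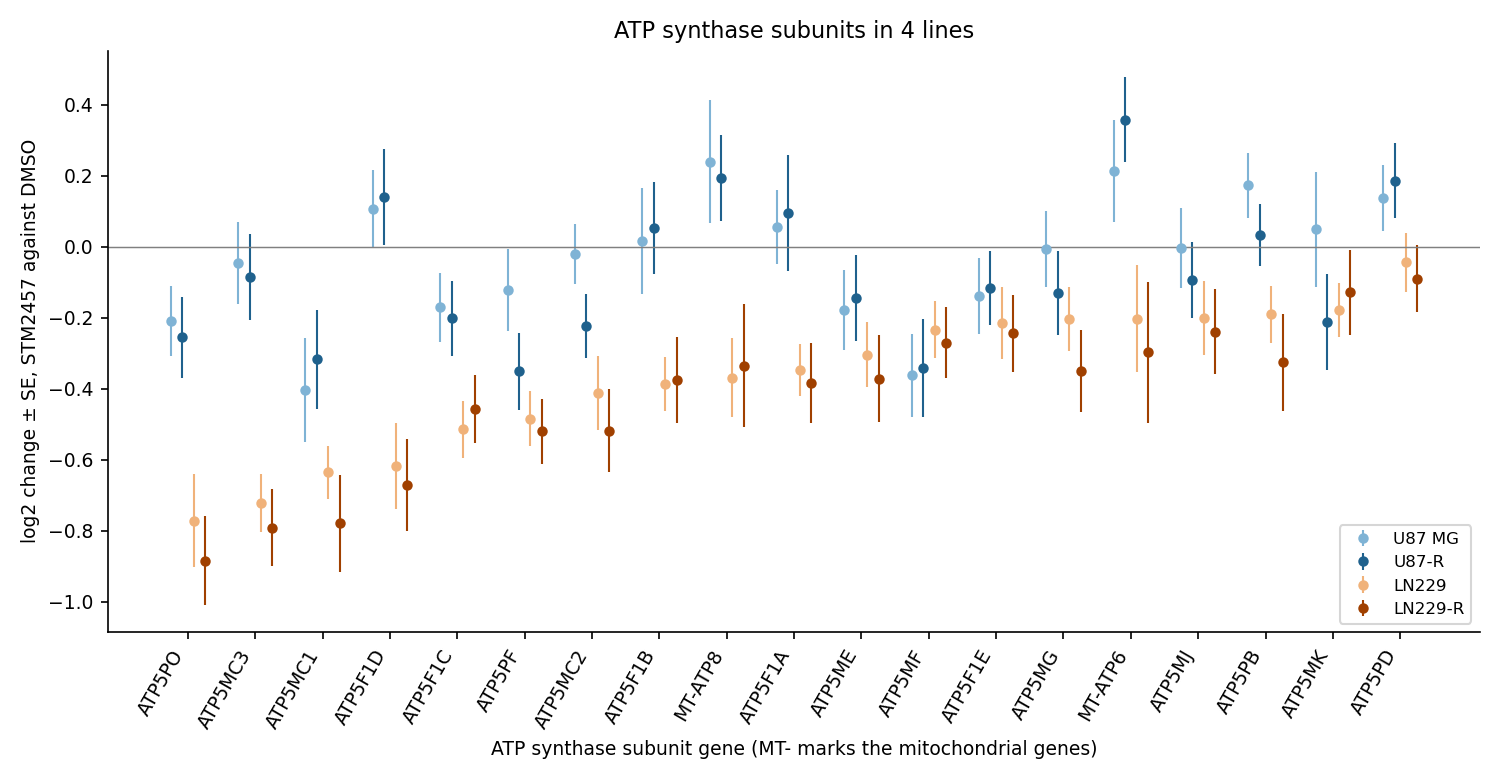
Log2 change ± SE of the 17 nuclear and 2 mitochondrial (MT-) ATP synthase genes between STM2457 and DMSO in the 4 lines, ordered by the change in LN229. The points of both LN229 lines lie below 0 for every gene, from ATP5PO at -0.77 and -0.88 to ATP5PD at -0.044 and -0.09.

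Complex I fell in part. NDUFV2, a core iron-sulfur subunit of the arm that takes electrons from NADH, had normalized counts of 1616, 1616 and 1710.4 in DMSO and 1048, 1117 and 932 in STM2457 in LN229 (log2 change -0.68, SE 0.091, limma adjusted p = 0.000579). The LN229-R values were 2108, 2222 and 2157 in DMSO and 1281, 1257 and 1118 in STM2457 (log2 change -0.83, SE 0.10, limma adjusted p = 0.000697). Every treated library was below every control, and among the nuclear core subunits of complex I its fall was the largest in both lines. NDUFV1, which carries the flavin that accepts the electrons, changed by -0.45 and -0.49 (limma adjusted p = 0.00278 and 0.00995). Among other core subunits, NDUFS1 and NDUFS8 fell in LN229 (log2 changes -0.39 and -0.42, limma adjusted p = 0.00316 and 0.00318). They missed the threshold in LN229-R at similar sizes (-0.38 and -0.42, limma adjusted p = 0.0863 and 0.0599) and passed it with the replicate block (adjusted p = 0.00893 and 0.0068). NDUFS3 and NDUFS7, also core subunits, were not called, at -0.025 and -0.018 in LN229 and -0.26 and -0.061 in LN229-R.

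Accessory subunits of complex I that fell in both LN229 lines included NDUFB10, NDUFB11 and NDUFS4. NDUFB10, a membrane arm subunit, had normalized counts of 1368, 1472 and 1503 in DMSO and 1083, 1005 and 997 in STM2457 in LN229, and 1489, 1566 and 1471 in DMSO and 926, 988 and 908 in STM2457 in LN229-R. Its log2 changes were -0.49 and -0.68 (limma adjusted p = 0.00163 and 0.00147), with no overlap between groups. NDUFB11 changed by -0.55 and -0.64 and NDUFS4 by -0.56 and -0.61 (limma adjusted p from 0.00124 to 0.00575). These sizes were close to those of the core subunits that fell.

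In complex II, which also serves the tricarboxylic acid cycle as succinate dehydrogenase, SDHC was the member that fell in both LN229 lines. SDHC, a membrane anchor that binds heme, had normalized counts of 4135, 3859 and 4075 in DMSO and 2546, 2441 and 2628 in STM2457 in LN229 (log2 change -0.66, SE 0.073, limma adjusted p = 0.000222). The LN229-R values were 5319, 4741 and 4609 in DMSO and 3174, 2543 and 3086 in STM2457 (log2 change -0.74, SE 0.12, limma adjusted p = 0.00264). Every treated library was below every control. The other anchor, SDHD, gave -0.094 and -0.054, and the iron-sulfur subunit SDHB gave 0.14 and 0.13, none of them called (limma adjusted p from 0.194 to 0.791). The flavoprotein SDHA was at -0.21 in LN229 (limma adjusted p = 0.0484, lost without any 1 of the 6 libraries, up to 0.154) and at -0.25 in LN229-R (limma adjusted p = 0.133). SDHA has pseudogene copies with which its reads could be shared.

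Within complex III, members fell beside the rising Rieske protein in the LN229 lines. CYC1, cytochrome c1, had normalized counts of 2135, 2279 and 2271 in DMSO and 1552, 1552 and 1427 in STM2457 in LN229, and 2325, 2416 and 2450.2 in DMSO and 1757, 1733 and 1689.6 in STM2457 in LN229-R. It changed by -0.56 and -0.47 (SE 0.077 and 0.091, limma adjusted p = 0.000652 and 0.00522), against the rises of UQCRFS1 in the same libraries. UQCRC1, a core protein of the matrix side, changed by -0.35 and -0.44 (limma adjusted p = 0.00833 and 0.0156, lost in LN229-R without DMSO or STM2457 replicate 3, up to 0.0704). UQCRH, the hinge protein, changed by -0.31 and -0.49 (limma adjusted p = 0.0255 and 0.0103), but its reads can be shared with the near-identical copy UQCRHL (which changed by -0.59 and -0.65 on the log2 scale), and the LN229 call was lost without DMSO replicate 2 or 3 (up to 0.0926). UQCR11, a small subunit, rose in LN229 (0.37, limma adjusted p = 0.0136, and 0.0503 without DMSO replicate 1) and was at 0.20 in LN229-R (limma adjusted p = 0.171).

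Complex IV was the complex with the fewest members called per member tested in LN229-R. NDUFA4 had normalized counts of 6737, 7046 and 6633 in DMSO and 4814, 4570.1 and 4288 in STM2457 in LN229 (log2 change -0.58, SE 0.078, limma adjusted p = 0.000599). In LN229-R they were 7993, 8527 and 7891 in DMSO and 5413, 4835 and 5234 in STM2457 (log2 change -0.66, SE 0.10, limma adjusted p = 0.00211), again below every control. COX6A1, a subunit near the cytochrome c site, rose in LN229 from 2526, 2893 and 2737 to 3513, 3362 and 3293 (0.32, limma adjusted p = 0.011) and in U87-R from 2448, 2558 and 2612 to 2964, 3277 and 3640.4 (0.37, limma adjusted p = 0.0453, lost without any library other than STM2457 replicate 1, up to 0.145). COX7B fell in LN229 (-0.41, limma adjusted p = 0.00395) and COX6C rose there (0.24, limma adjusted p = 0.0247, lost without any library other than STM2457 replicate 2, up to 0.0925). COX4I1, COX5A and COX5B, nuclear subunits that contact the catalytic core, were called in none of the 4 lines, with log2 changes from -0.21 (COX5A in LN229-R) to 0.34 (COX4I1 in U87-R).

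In the U87 lines the remaining calls were few. NDUFC2, an accessory subunit of complex I, had normalized counts of 509.6, 527 and 467 in DMSO and 315, 339.7 and 375 in STM2457 in U87 MG, a log2 change of -0.55 (SE 0.13, limma adjusted p = 0.0267), lost without DMSO or STM2457 replicate 1 or 2 (up to 0.0972). NDUFS8, a core iron-sulfur subunit, went from 3598, 3707 and 3258 to 2385, 2747 and 2968 in U87 MG (-0.39, SE 0.11, limma adjusted p = 0.0486), lost without any library other than STM2457 replicate 3 (up to 0.154). Both genes lay below all controls in every treated U87 MG library. Genes that fell in both LN229 lines gave, for NDUFV2, -0.35 and -0.36, for SDHC -0.071 and -0.16, for CYC1 -0.25 and -0.13 and for ATP5PO -0.21 and -0.26 as log2 changes in U87 MG and U87-R, none of them called (limma adjusted p from 0.0787 to 0.645). With the replicate block, which pairs the U87-R libraries, NDUFV2 (adjusted p = 0.0256), SDHA (0.0192) and ATP5PF (0.0203) also fell and COX4I1 (0.00852) also rose in U87-R.

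The nuclear responses of lines that share no library can be set side by side over the 77 genes. LN229 and LN229-R had 26 falling genes in common, 74.3% of the 35 in LN229 and 92.9% of the 28 in LN229-R, and 75 of 77 changes had the same sign (Pearson r = 0.948). U87 MG and U87-R had the same sign in 63 of 77 (r = 0.865), and pairs of a U87 and an LN229 line in 54 to 56 of 77 (r from 0.682 to 0.713). These figures are descriptions over genes, which are not independent replicates, and paired lines share kit and medium. Of all genes 49.7% were called in LN229 and 38.6% in LN229-R. The same figures were not computed over all genes, so whether the likeness is particular to these members was not tested. Across the 4 lines 35 of the 77 nuclear genes were called in none, 26 fell in exactly 2, NDUFB4 fell in 3, NDUFA11 fell in 4, and UQCRFS1 and UQCR10 rose in 4.

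Of the 13 mitochondrially encoded mRNAs, 1 rose and 0 fell in U87 MG, near the 7.86% of all genes that rose, and 3 rose and 0 fell in U87-R, where 8.46% of all genes rose. In both lines 12 of 13 changes were above 0, under every scaling tried. The median log2 changes were 0.16 and 0.19, and 0.27 in U87 MG without STM2457 replicate 2 and 0.10 in U87-R without STM2457 replicate 3. MT-CYB, the only mitochondrial subunit of complex III, had normalized counts of 33156, 26695 and 28076 in DMSO and 46782, 35018 and 46175 in STM2457 in U87 MG (log2 change 0.54, SE 0.14, limma adjusted p = 0.0407). In U87-R they were 32868, 32868 and 36963 in DMSO and 50078, 51023 and 62838 in STM2457 (log2 change 0.67, SE 0.11, limma adjusted p = 0.00666). Groups did not overlap in either line, and the U87 MG call was lost without DMSO replicate 2 or 3 or STM2457 replicate 1 or 3 (up to 0.146). MT-ND6, the only protein gene on the other strand of mitochondrial DNA, went from 7785, 7662 and 7621 to 11010.2, 11204 and 12658 in U87-R (0.59, SE 0.09, limma adjusted p = 0.00428). MT-ND2, of complex I, went from 37566, 37709.6 and 41876 to 49811, 49555 and 59947 in U87-R (0.44, limma adjusted p = 0.0272), lost without replicate 1 or 2 of either group (up to 0.112). MT-ND5 was the 1 gene below 0, at -0.14 and -0.15 (limma adjusted p = 0.401 and 0.412). With the replicate block, 8 of 13 rose in U87-R and 1, MT-ND5, fell (adjusted p = 0.0369), where 15.7% of all genes rose and 13.9% fell in that fit.

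In the LN229 lines the same genes went mostly the other way. In LN229 4 of 13 fell and 1 rose, and in LN229-R 0 were called by limma (2 at an unadjusted p under 0.05), with medians of -0.37 and -0.30. The 4 that fell in LN229 stand beside 23.6% and the 1 that rose beside 26.2% of all genes, and the 0 in LN229-R beside 17.1% and 21.5%. Without STM2457 replicate 2 the LN229 median was -0.17. MT-ND6 had normalized counts of 3627, 3327 and 3963 in DMSO and 2631, 1913 and 2102 in STM2457 in LN229 (log2 change -0.73, SE 0.13, limma adjusted p = 0.00203). In LN229-R they were 3853, 2633 and 3249 in DMSO and 3481, 2189 and 1862 in STM2457 and overlapped (log2 change -0.41, limma adjusted p = 0.208, and 0.0451 with the replicate block). MT-CO3, a core subunit of complex IV, went from 123104, 125046 and 118481 to 102649, 60737 and 79855 in LN229 (-0.62, SE 0.20, limma adjusted p = 0.0297), lost without any 1 DMSO library or STM2457 replicate 3 (up to 0.0919). In LN229-R it went from 142959, 184698 and 139996 to 111486, 78958 and 93579 (-0.72, SE 0.26, limma adjusted p = 0.0583, and 0.0485 with the block). DMSO replicate 2 of LN229-R was the highest control there. Without that library the LN229-R median of the 13 genes was -0.23 in place of -0.30.

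The other mitochondrial calls in LN229 were MT-ND4L, MT-ATP8 and MT-ND1. MT-ND4L, of complex I, went from 29110.5, 20749.7 and 23781 to 17949, 16411 and 18735 (-0.46, limma adjusted p = 0.0215, up to 0.0763 without DMSO replicate 1 or 3). MT-ATP8, of the ATP synthase, went from 9864, 8431 and 9394 to 8087, 6281 and 7146 (-0.37, limma adjusted p = 0.0247, up to 0.0925 without DMSO replicate 1 or 3 or STM2457 replicate 3). MT-ND1, of complex I, was the 1 that rose, from 44416, 39274 and 41893 to 56095, 54707 and 49101 (0.35, limma adjusted p = 0.0359, up to 0.136 without any 1 DMSO library or STM2457 replicate 1). That call was also lost with upper quartiles set equal and with the replicate block. In LN229-R MT-ND1 went from 50794, 58356 and 49623 to 67950.5, 84758 and 66434, with all treated libraries above the controls and a log2 change of 0.46 that was not called (limma adjusted p = 0.0979). Of all 17063 genes tested there, 4694 had all treated libraries above the controls. Without 1 library the LN229 calls ranged from 1 (without DMSO replicate 1 or 3) to 7 (without STM2457 replicate 2). MT-ATP8 overlaps MT-ATP6 by 46 bases, MT-ATP6 overlaps MT-CO3 by 1 and MT-ND4L overlaps MT-ND4 by 7, and nuclear copies of mitochondrial sequence exist, so reads of these genes could be split in counting. Whether strand was used in counting, which bears on MT-ND6, is not given in the sources used here.

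**Figure D4:**
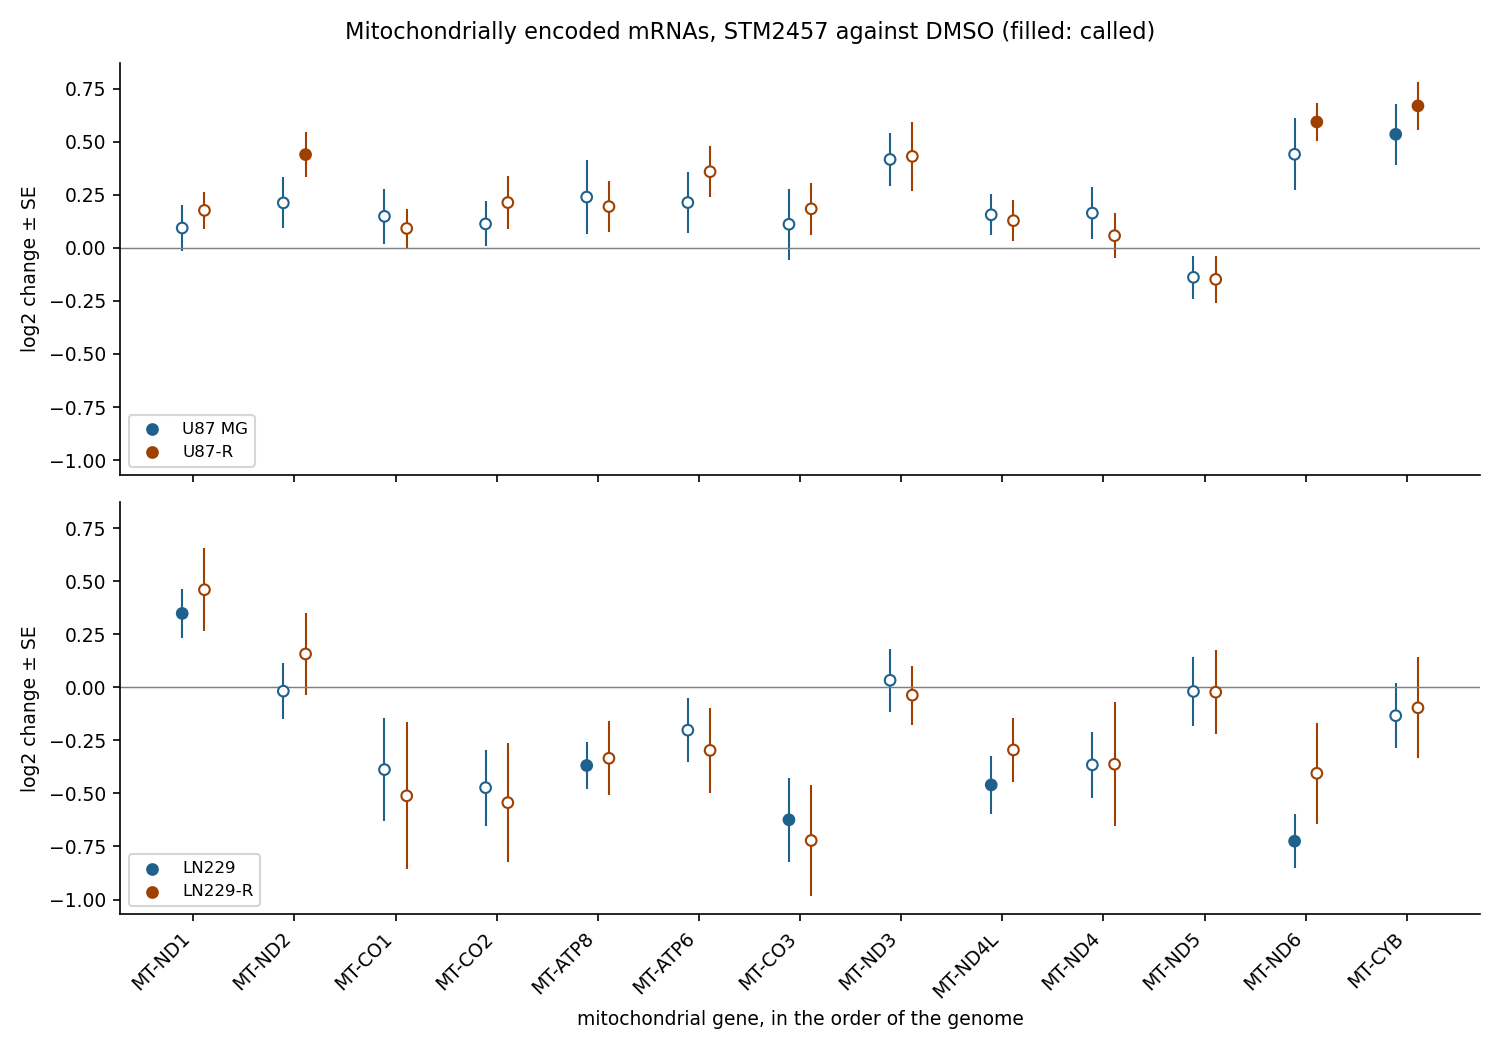
Log2 change ± SE between STM2457 and DMSO for the 13 mitochondrial protein genes in the order in which they lie on the mitochondrial genome, for the U87 lines (top) and the LN229 lines (bottom). Filled points were called. In the top panel MT-CYB stands highest in both lines, and in the bottom panel MT-ND1 stands above 0 while MT-CO3 and MT-ND6 hold the lowest points.

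As shares of a library, mitochondrial and nuclear members moved as follows. The 13 mitochondrial genes took 2.35 ± 0.142% of normalized counts in DMSO and 2.73 ± 0.244% in STM2457 in U87 MG (SD, n = 3), and 2.69 ± 0.0471% and 3.16 ± 0.159% in U87-R. They took 4.31 ± 0.175% and 3.46 ± 0.537% in LN229, and 4.79 ± 0.758% and 3.78 ± 0.239% in LN229-R. The U87-R groups and both pairs of LN229 groups did not overlap, whereas those of U87 MG did. The 77 nuclear genes took 0.777 ± 0.0332% in DMSO and 0.645 ± 0.0232% in STM2457 in LN229, and 0.755 ± 0.0179% and 0.617 ± 0.0121% in LN229-R, without overlap. In U87 MG they took 0.587 ± 0.0123% and 0.614 ± 0.0443%, and in U87-R 0.574 ± 0.0195% and 0.600 ± 0.0361%, within the spread of the libraries.

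**Figure D5:**
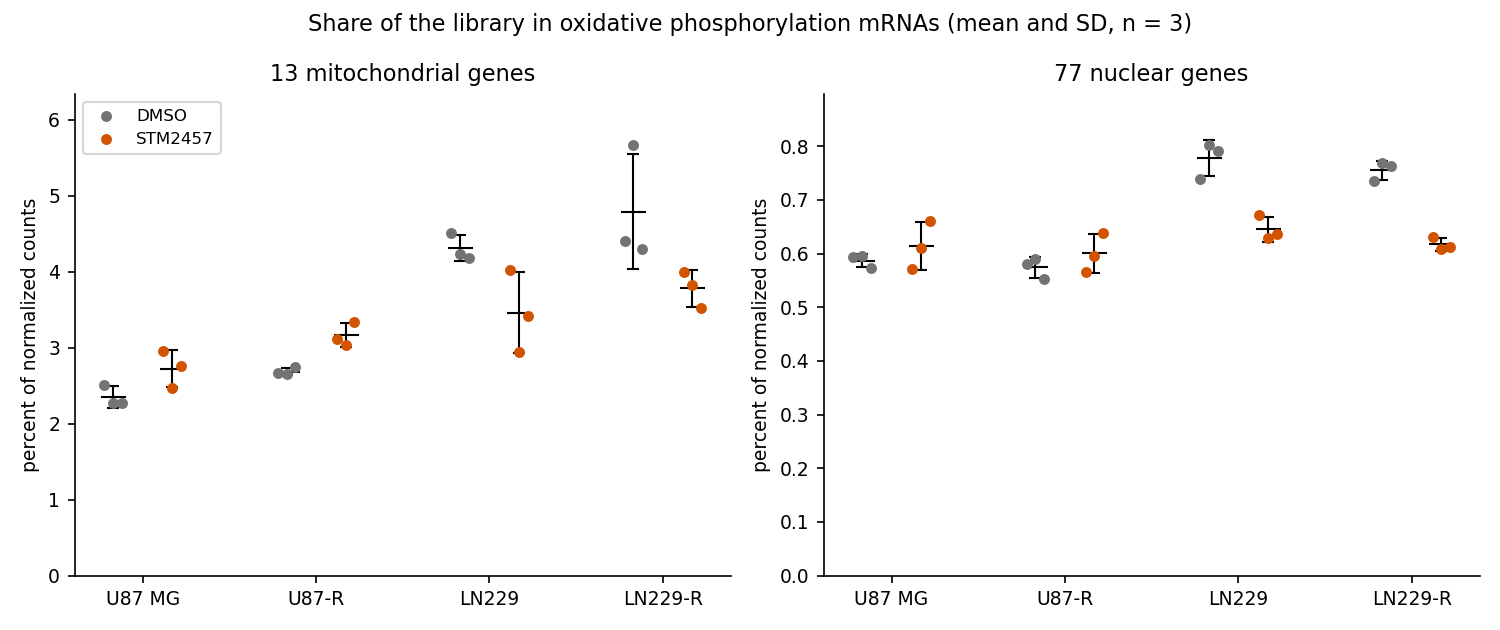
Percent of the normalized counts of each library (points) that fell to the 13 mitochondrial (left) and 77 nuclear (right) genes, for DMSO and STM2457 in the 4 lines, with mean and SD (n = 3) in black. The treated LN229 and LN229-R libraries lie below their controls in both panels, and 1 LN229-R control lies at 5.66% on the left.

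Temozolomide resistance in the U87 background went with few calls. Of the 77 nuclear genes 2 were higher and 2 lower in U87-R than in U87 MG, where 3.13% of 16306 genes were higher and 1.15% lower. The nuclear median was 0.00124, beside -0.0137 over all genes. SDHA had normalized counts of 2632, 2900.2 and 3204 in U87 MG and 1871, 2002 and 2011 in U87-R (log2 change -0.57, SE 0.10, limma adjusted p = 0.0183). NDUFS6, an accessory complex I subunit, had 1349, 1326 and 1352 in U87 MG and 985, 984 and 801 in U87-R (-0.55, limma adjusted p = 0.0329). Both were lower in every U87-R library. NDUFB1, a small membrane arm subunit of complex I, had 453, 446 and 517 in U87 MG and 705, 724 and 751 in U87-R (0.62, limma adjusted p = 0.0204), and ATP5MJ, a small membrane subunit of the ATP synthase, 787, 742 and 803 in U87 MG and 1072, 1083 and 1097 in U87-R (0.48, limma adjusted p = 0.0316). These 2 were higher in every U87-R library. Of all 16306 genes tested, 2049 were higher and 1753 lower without overlap. The calls of NDUFS6 and ATP5MJ were lost without any 1 library (adjusted p up to 0.121 and 0.14), that of NDUFB1 without any but U87 MG replicate 3 (up to 0.0978) and that of SDHA without U87 MG replicate 2 or U87-R replicate 1 or 2 (up to 0.0844).

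Mitochondrial mRNAs were higher in U87-R in direction but not by the test. Among the 13, 0 were called by limma (7 at an unadjusted p under 0.05), all 13 log2 changes were above 0 (12 with libraries set to equal totals), and the median was 0.29. The 7 cannot be set against all genes, for which that count was not made. For 10 of 13, every U87-R library lay above every U87 MG library, which was so for 12.6% of all genes tested. The lowest adjusted p was that of MT-ND3, of complex I, with normalized counts of 3676, 2903 and 3593 in U87 MG and 4455, 4275 and 5193 in U87-R (0.46, SE 0.12, limma adjusted p = 0.0842). The smallest change was that of MT-ND1, at 0.032. As a share of the library the 13 genes took 2.37 ± 0.142% in U87 MG and 2.68 ± 0.0468% in U87-R (SD, n = 3), without overlap.

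The LN229 resistance comparison is given with the names of its own table, and exchanging them turns every sign. Of the 77 nuclear genes 3 were higher and 0 lower in the library group labelled LN229-R, where 5.6% of 17136 genes were higher and 3.65% lower (11 of the 77 had an unadjusted p under 0.05 in limma). With libraries set to equal totals 1189 of all genes were higher and 472 lower, against 959 and 626 as deposited. NDUFB4 had normalized counts of 913, 981 and 1008 in the group labelled LN229 and 1555, 1729 and 1704 in that labelled LN229-R (log2 change 0.78, SE 0.087, limma adjusted p = 0.00165), a call kept without each library. NDUFA8, a complex I subunit of the intermembrane side, had 677, 746 and 717 under the LN229 name and 912, 983 and 993 under the LN229-R name (0.43, limma adjusted p = 0.0236), and SDHA 2845, 2610.4 and 3054 under the LN229 name and 3526, 3484 and 3640.1 under the LN229-R name (0.33, limma adjusted p = 0.0491). All 3 were without overlap, as were 2801 of 17136 genes in that direction. The calls of NDUFA8 and SDHA were lost without any library other than the 1 labelled LN229 replicate 2 (adjusted p up to 0.123 and 0.194). Without that library 6 nuclear genes were higher and 2 lower, where 1789 of all 17140 genes were higher and 1473 lower. Both nuclear shares lay under those of all genes. The nuclear median was -0.0413 (-0.00652 without LN229 replicate 2 and 0.00936 without LN229-R replicate 1, as named there), beside -0.00667 over all genes.

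Among the 13 mitochondrial genes 0 were called by limma in that comparison (2 at an unadjusted p under 0.05), with a median of -0.18, and -0.0975 without replicate 2 under the LN229 name. The largest change was that of MT-ND5, of complex I, with normalized counts of 63185, 65835 and 56236 in the group labelled LN229 and 52128, 35252 and 43989 in that labelled LN229-R (-0.51, SE 0.16, limma adjusted p = 0.0851). The groups did not overlap, as was so in that direction for 2488 of 17136 genes tested. Replicate numbers were taken to pair these libraries too. With the replicate as a block 5 nuclear genes were higher and 1 lower and 1 mitochondrial gene, MT-ND6 (limma adjusted p = 0.0446), was higher. In that fit 8.32% of all genes were higher and 6.85% lower. MT-CO1, the catalytic subunit of complex IV, had 335377, 455317 and 289419 under the LN229 name and 328898, 303137 and 284159 under the LN229-R name, its highest value being in replicate 2 under the LN229 name, the column closest to the LN229-R control that stood apart in the STM2457 table, and was not called (limma adjusted p = 0.586).

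Genes that assemble the complexes were described from lists of pathway genes other than the members. Of 22 complex IV assembly factors, STM2457 raised 6 and lowered 1 in U87 MG and raised 4 and lowered 3 in U87-R, so that 27.3% and 18.2% rose beside 7.86% and 8.46% of all genes, and 4.55% and 13.6% fell beside 5.72% and 6.2%. It raised 8 and lowered 5 in LN229 (36.4% and 22.7%, beside 26.2% and 23.6% of all genes) and raised 7 and lowered 2 in LN229-R (31.8% and 9.09%, beside 21.5% and 17.1%). SCO2, which delivers copper to MT-CO2 protein, rose by 1.46 in U87 MG, 1.64 in U87-R, 1.82 in LN229 and 1.60 in LN229-R (limma adjusted p from 1.48e-05 to 0.00121). Its normalized counts went from 338 ± 8.74 to 1203 ± 149 in LN229 (SD, n = 3). COA6 and COA7, 2 further assembly factors, also rose in all 4, COA7 by 0.71, 1.14, 1.30 and 1.43 (limma adjusted p from 1.69e-05 to 0.0483). Of 14 complex I assembly factors 2 rose in each line (14.3%, between the shares of all genes in the U87 and the LN229 lines), and 1, 0, 4 and 3 fell in U87 MG, U87-R, LN229, then LN229-R (28.6% and 21.4% in the LN229 lines, beside 23.6% and 17.1% of all genes). NDUFAF1 rose in all 4 lines, by 0.66, 0.68, 0.33 and 0.46 (limma adjusted p from 0.0215 to 0.0277).

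Of 13 assembly factors of complexes II and III and the ATP synthase, 1 rose in each line, and 0 fell in each U87 line, 4 in LN229 and 3 in LN229-R. The shares that fell in the LN229 lines were 30.8% and 23.1%, beside 23.6% and 17.1% of all genes, and the 7.69% that rose lay under the 26.2% and 21.5% of all genes. In U87 MG and U87-R the 7.69% that rose lay near the 7.86% and 8.46% of all genes, and the 0 that fell stand beside 5.72% and 6.2%. LYRM7, the chaperone that stabilizes the Rieske protein before its insertion, fell by -0.97 (log2) in LN229 and -1.20 in LN229-R (limma adjusted p = 0.000368 and 0.00104), from 930.3 ± 76.5 to 477 ± 60.4 and from 1208 ± 205 to 523 ± 73.2 normalized counts (SD, n = 3). UQCRFS1 itself rose in these libraries. SDHAF1, which helps insert the iron-sulfur clusters of SDHB, changed by -1.42 and -1.68 (limma adjusted p = 0.000248 and 0.00134) where SDHB was not called. Among 11 isoform and alternative subunits, NDUFA4L2, a paralog of NDUFA4 known from hypoxia, rose by 2.54 and 2.26 in LN229 and LN229-R (limma adjusted p = 0.000962 and 0.00947), where NDUFA4 fell. Of that list 2 of the 6 tested genes rose and 2 fell in LN229 (33.3% each, beside 26.2% and 23.6% of all genes). In LN229-R 3 of 7 rose and 1 fell (42.9% and 14.3%, beside 21.5% and 17.1%). In the U87 lines 0 of the 6 tested genes of that list were called by limma.

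Of 29 factors of mitochondrial transcription, RNA processing and DNA maintenance, 6 rose and 0 fell in U87 MG and 5 rose and 0 fell in U87-R, 20.7% and 17.2% rising where 7.86% and 8.46% of all genes rose. In LN229 6 rose and 9 fell (20.7% and 31.0%, against 26.2% and 23.6% of all genes) and in LN229-R 5 rose and 6 fell (17.2% and 20.7%, against 21.5% and 17.1%), shares near those of all genes. FASTKD5, which acts in the maturation of mitochondrial mRNAs without flanking transfer RNAs, rose by 0.78 in U87 MG, 0.97 in U87-R, 1.22 in LN229 and 1.28 in LN229-R (limma adjusted p from 2e-05 to 0.0179). FASTKD2 rose in all 4 as well, by 0.61, 0.53, 0.66 and 0.61 (limma adjusted p from 0.00174 to 0.0301). PRORP, the catalytic part of mitochondrial RNase P, fell in LN229 and LN229-R (-0.52 and -0.87, limma adjusted p = 0.00718 and 0.00335). Among 12 listed regulators of mitochondrial biogenesis, of which 10 to 12 were tested in a table, PPARGC1B, a coactivator, rose in all 4, by 1.21, 1.23, 1.43 and 1.94 (limma adjusted p from 0.000283 to 0.00689). GABPB1, a subunit of the factor that binds the ETS letters above, fell in LN229 and LN229-R (-0.76 and -0.68, limma adjusted p = 0.00249 and 0.0136). This list held 1 rise and 0 falls of 12 in U87 MG and 2 and 0 of 11 in U87-R. The 8.33% and 18.2% that rose stand beside 7.86% and 8.46% of all genes, and the 0 that fell beside 5.72% and 6.2%. It held 2 and 2 of 10 in LN229 (20% each, under the shares of all genes) and 1 and 1 of 10 in LN229-R (10% each, also under them).

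Of 23 genes of the tricarboxylic acid cycle and pyruvate entry, which supply NADH and succinate, 0 rose and 1 fell in U87 MG, 1 rose and 3 fell in U87-R, 2 rose and 8 fell in LN229 and 2 rose and 7 fell in LN229-R. The shares that fell in the LN229 lines were 34.8% and 30.4%, beside 23.6% and 17.1% of all genes, and the 8.70% that rose in each lay under 26.2% and 21.5%. The 1 and 3 of 23 that fell in U87 MG and U87-R stand beside 5.72% and 6.2% of all genes. The list's medians were 0.00662, -0.0339, -0.16 and -0.25. OGDH, a subunit of the 2-oxoglutarate dehydrogenase complex, rose by 0.61, 1.61 and 1.53 in U87-R, LN229 and LN229-R (limma adjusted p from 9.66e-06 to 0.0106). DLST, its partner in that complex, fell in LN229 and LN229-R (-0.49 and -0.36, limma adjusted p = 0.00173 and 0.0205). MPC2, a part of the mitochondrial pyruvate carrier, fell in all 4 lines, by -0.59, -0.89, -0.42 and -0.46 (limma adjusted p from 0.00492 to 0.0322). IDH2, the mitochondrial NADP-dependent isocitrate dehydrogenase, fell in LN229 and LN229-R (-1.18 and -1.18, limma adjusted p = 0.00413 and 0.0179). In the resistance comparisons these 7 lists held 1 gene higher and 1 lower in U87-R (COX16, 0.72, and FASTKD3, -1.30). These were 0.84% each of the 119 tested, under the 3.13% and 1.15% of all genes. In the group labelled LN229-R 6 were higher and 3 lower, 5.17% and 2.59% of the 116 tested, beside 5.6% and 3.65% of all genes. Among them was ACAD9, an assembly factor of complex I, at 0.87 (limma adjusted p = 0.000655).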

How the data were processed

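Polyadenylated RNA was measured in 24 libraries in 8 groups of 3, deposited as 6 tables of 6 libraries. The submitters' processing notes name Trimmomatic 0.39, STAR 2.7.11a, Salmon 1.4.0 and DESeq2 and the builds GRCh38 and hg38, without their roles. The deposited values are a normalized signal per gene (normalized counts) that the authors made from their counts. The values carry factors that differ between genes, so no whole read counts were recovered, no count test was run and read depth is unknown, and the total of normalized counts per library stands in its place. The design foresaw a test on log values for this case. No per-sample column belonged to another series. Gene names were matched for 93.33 to 99.67% of the genes listed in a table, through their identifiers.

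Values were tested as log2(value + 1) in limma 3.58.1 (R 4.3.3), with a mean-variance trend, keeping genes whose 6 values in a table averaged 10 or more, and p-values were adjusted by Benjamini-Hochberg over all genes tested there. The pseudocount makes fold changes of low genes too small. The procedure was tested on simulated data. Tables and figures used Python 3.11.15 with numpy 2.4.6, pandas 2.3.3 and matplotlib 3.10.9. Alternatives were pseudocounts of 0.5 and 5, no filter or a mean of at least 50, libraries scaled to equal totals, to equal totals without mitochondrial genes or to equal upper quartiles, no trend, the replicate number as a block, each library left out, and the names of the LN229 lines exchanged. Replicate numbers were taken to pair the libraries where same-numbered libraries deviated together with a correlation over 0.1 for every number. This held for LN229-R against LN229 (0.13, 0.20 and 0.11), for STM2457 in U87-R (0.17, 0.11 and 0.30) and for STM2457 in LN229-R (0.18, 0.32 and 0.102), and the pairing comes from these correlations, not from the labels. In LN229-R the libraries numbered 3 were not each other's closest match. With STM2457 in U87 MG and LN229 the like-numbered libraries were closest for every number, but not all correlations exceeded 0.1.

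The members and the gene lists were chosen with earlier results of these data known. Members are named with values where they were among the 6 largest called rises or falls of a comparison, in a panel of core subunits, or encoded by mitochondrial DNA, and other members named to complete a complex were chosen after their values were seen. From the other lists at most 4 called genes per list and comparison were taken by lowest adjusted p, with their values in the other lines. 1 member is counted but not reported by name here.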

Additional observations from a re-analysis of the deposited data

Results flagged for a closer look

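Of the members, 2 were called in opposite directions in 2 backgrounds, with every library of each treated or resistant group on 1 side of its controls. MT-ND6 had a log2 change with STM2457 of -0.725 in LN229 and of 0.593 in U87-R. Opposite signs were not particular to MT-ND6. In both U87 lines 12 of 13 mitochondrial changes were above 0, and in both LN229 lines 11 of 13 were below 0. SDHA differed by 0.326 between the group labelled LN229-R and that labelled LN229 and by -0.566 between U87-R and U87 MG, and the first sign turns if the LN229 names are exchanged. These differences between backgrounds were not tested, because the tables were normalized separately and the backgrounds differ in medium and library kit.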

How the results depend on the processing

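The median change of the nuclear and of the mitochondrial members kept its sign with STM2457 in both LN229 lines under every alternative run. With upper quartiles set equal the nuclear medians were -0.2856 in LN229 and -0.327 in LN229-R. In U87-R against U87 MG the nuclear median was -0.03514 with equal totals and -0.0306 with equal totals without mitochondrial genes, and in LN229-R against LN229 it was 0.01318 with equal totals. Exchanging the LN229 names turned the LN229 resistance medians to 0.04129 for nuclear and 0.1756 for mitochondrial members, and moved the 5 mitochondrial calls of LN229 to LN229-R, leaving 0 in LN229.

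Counts of nuclear members called fell without the trend in limma, to 0 in U87-R against U87 MG, 1 in LN229-R against LN229, 2 with STM2457 in U87 MG and 1 in U87-R. They were 8 in U87 MG with a mean of at least 50 and 2 in U87-R with no filter. Mitochondrial members called in U87 MG numbered 2 with equal totals, also without mitochondrial genes in the total, and 0 with equal upper quartiles or without the trend. In U87-R they numbered 6 under both kinds of equal totals. In LN229-R they numbered 1 with no filter, with either kind of equal totals, with equal upper quartiles and without the trend. The cause of these shifts was not tested.

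With the replicate block, which pairs libraries by number, 6 nuclear and 1 mitochondrial members were called in LN229-R against LN229, 12 and 9 with STM2457 in U87-R, and 2 mitochondrial members in LN229-R, and no call of these comparisons was lost. Over all genes the block called 2600 of 17136 in LN229-R against LN229, 4796 of 16185 in U87-R and 8444 of 17063 in LN229-R. Where the correlations did not exceed 0.1 for every number, the block gave 15 nuclear and 5 mitochondrial calls in U87 MG and 3 mitochondrial calls in U87-R against U87 MG. In those fits 4137 of 16407 genes were called in U87 MG and 1176 of 16306 in U87-R against U87 MG. The nuclear share in U87 MG lay under that of all genes and both mitochondrial shares lay above it. In LN229 the block gave 5 nuclear rises and 33 falls, where 4456 of 17107 genes rose and 3988 fell. Of its mitochondrial members 0 rose and 4 fell in that fit. Same-numbered libraries had correlations of 0.08, 0.02 and 0.14 in U87-R against U87 MG, of 0.19, 0.04 and 0.17 in U87 MG and of 0.07, 0.09 and 0.099 in LN229.

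Leaving out each library gave 0 to 2 nuclear calls in U87-R against U87 MG, 1 to 8 in LN229-R against LN229, 1 to 4 with STM2457 in U87 MG, 1 to 5 in U87-R, 33 to 41 in LN229 and 20 to 31 in LN229-R. The calls over all genes shifted as well, from 534 to 3262 in LN229-R against LN229. Mitochondrial calls ranged from 0 to 1 in U87-R against U87 MG, 0 to 1 in U87 MG, 2 to 4 in U87-R, 1 to 7 in LN229 and 0 to 2 in LN229-R. Nuclear medians ranged from -0.01713 to 0.02567 in U87-R against U87 MG, from -0.08415 to 0.03069 in U87 MG, from -0.09378 to -0.01362 in U87-R and from -0.2793 to -0.2001 in LN229, and the mitochondrial median from -0.4104 to -0.1666 in LN229. Of the 35 nuclear genes that fell in LN229 29 kept their call without each library, and of the 28 in LN229-R 19 did. With 3 libraries a group and no read depth, many small changes may have gone undetected, to a degree that differed between comparisons.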
